A study of Sus scrofa with 40 samples.

Results

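GAPDH, LDHA and CKB are 3 genes of anaerobic energy supply, described here on all of their array probes that could be named, in the Longissimus muscle (LM) of pigs. They were chosen because the study named them as lower in Basque pigs on these same arrays, so the direction of their breed difference is not independent evidence. They make up 3 of the 14104 contigs of the array and 4 of its 15198 probes, 1 probe each for GAPDH (CB477354.1_89) and LDHA (BM659354.1_1495) and a pair for CKB (BQ599027.1_1331 and BQ599027.1_1391). All 4 probes passed the filter on dim probes and were well above background, unsaturated and free of outlier marks on all 40 arrays.

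The study compared castrated male pigs of the Basque (B) and Large White (LW) breeds, whose meat quality differs, at a live weight of 145 kg. The B pigs were older at slaughter, and the study calls the effects of breed, age and feeding confounded. What is called a breed difference below cannot be told apart from these. In each breed 10 pigs were kept in the conventional system (C) and 10 in the alternative system (A), which makes 4 groups. Littermates were placed in opposite systems, but litter is not in the labels and was not used here. LM was sampled 30 min after exsanguination, and the RNA of each pig, in Cy3, was hybridised against a pool of all 40 pigs, in Cy5, with the same dye order throughout.

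Glycolysis breaks glucose from blood or from glycogen down to pyruvate, and GAPDH catalyses its oxidative step, which uses up NAD. LDHA, the muscle-type subunit of lactate dehydrogenase, turns pyruvate into lactate and gives the NAD back, so that glycolysis can go on without oxygen. Creatine kinases rebuild ATP from phosphocreatine, and CKB is the brain-type cytosolic subunit, which adult skeletal muscle holds beside the muscle-type CKM.

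Values are log2 ratios of pig to pool after the median of each array was subtracted, and differences are B minus LW on the log2 scale unless stated. Calls rest on limma, with an adjusted p under 0.05 over 12222 tested probes. In whole muscle, a change in the mix of cells and a change in RNA per cell cannot be told apart. Of the 40 arrays, 2 stood apart. B alternative replicate 15 had a median log2 ratio before centring of -0.086 and LW alternative replicate 18 one of -1.54, while the other arrays lay between -1.13 and -0.59. The log2 values that the authors deposited for these arrays correlated at 0.680 and 0.833 with the scanner's processed signals, against a median of 0.994 over all arrays.

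All 4 probes were called lower in B pigs, where 21.2% of the tested probes were called and 9.61% were called lower in B. Since the probes were chosen for that direction, nothing is read from this count. On each of the 4 probes the LW median exceeded the value of 19 of 20 B pigs. Such counts of pigs, here and below, also follow from that choice and have no share over all tested probes beside them. Nothing is read from them either. Over all tested probes the median breed difference was 0.00040.

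The strand that the GAPDH probe reads was not established, as told with its sequence below. All values given for GAPDH are therefore those of the probe, and whether they follow the GAPDH mRNA is not known. They ranged from -0.58 to 0.16 in B pigs with a median of -0.28. In LW pigs they ranged from -0.56 to 0.57 with a median of 0.032. In B conventional pigs the lowest, median and highest values were -0.58, -0.30 and 0.16, and in B alternative pigs they were -0.57, -0.25 and -0.042. In LW conventional pigs they were -0.56, -0.071 and 0.46, and in LW alternative pigs -0.11, 0.065 and 0.57. The breeds overlapped widely in C housing, where LW conventional replicate 10 was nearly as low as the lowest B pig and 1 of 10 LW pigs lay above B conventional replicate 5. In A housing the overlap was small, with 8 of 10 LW pigs above the highest B pig. The breed difference was -0.26 (SE 0.064, adjusted p = 0.0030), which puts B pigs at 83.3% of the LW level. This breed call ended at -0.12 (adjusted p = 0.26) with the Cy3 intensity after the authors' Rquantile step between arrays. It also ended at -0.12 (adjusted p = 0.73) with the Cy3 channel alone and at -0.047 (adjusted p = 0.65) with Rquantile on uncentred values. In C housing the difference was -0.15 (SE 0.091, adjusted p = 0.32) and was not called, with a range of -0.23 to -0.0085 over the alternatives and -0.018 with the Cy3 channel alone, and in A housing it was -0.37 (SE 0.091, adjusted p = 0.0085) and was called. That call ended at -0.20 (adjusted p = 0.23) with the Cy3 intensity after the authors' Rquantile step between arrays, at -0.086 (adjusted p = 0.55) with this step on uncentred values and at -0.23 (adjusted p = 0.80) with the Cy3 channel alone, and it held under 22 of 25 alternatives. The 2 housing systems were not shown to differ in this, since the interaction was -0.22 (SE 0.13, adjusted p = 0.97).

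LDHA, which forms lactate, ranged from -2.37 to -0.52 in B pigs with a median of -1.15, and from -1.56 to 0.25 in LW pigs with a median of -0.67. The lowest, median and highest values were -2.37, -1.18 and -0.52 in B conventional pigs and -2.10, -1.15 and -0.69 in B alternative pigs. They were -1.56, -0.73 and -0.50 in LW conventional pigs and -1.47, -0.62 and 0.25 in LW alternative pigs. B conventional replicate 10 and B alternative replicate 15 were the lowest pigs, LW alternative replicate 18 was the highest, and 5 of 20 LW pigs lay above every B pig. Of these, B alternative replicate 15 and LW alternative replicate 18 are the arrays that stood apart. The breed difference was -0.47 (SE 0.13, adjusted p = 0.0065), or 72.1% of the LW level in B pigs. This breed call ended at -0.30 (adjusted p = 0.15) with the Cy3 intensity after Rquantile and at -0.33 (adjusted p = 0.34) with Cy3 alone. It also ended at -0.23 (adjusted p = 0.20) with Rquantile on uncentred values. Within C housing the breed difference was -0.40 (SE 0.18, adjusted p = 0.16) and within A housing -0.54 (SE 0.18, adjusted p = 0.057), neither of which was called. Under 7 of 25 alternatives it was called in A housing, among them the model with no slide term (-0.61, adjusted p = 0.026) and array weights (-0.49, adjusted p = 0.0089), and with array weights it was also called in C housing (-0.41, adjusted p = 0.045). Over the alternatives the difference in A housing ran from -0.61 to -0.10, the smallest with the Cy3 intensity after Rquantile on uncentred values (adjusted p = 0.73).

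CKB was read by both of its probes, 1331 and 1391, named here by their positions on the contig. On probe 1331 the values ranged from -0.61 to 0.18 in B pigs with a median of -0.34, and from -0.52 to 0.41 in LW pigs with a median of -0.11. The lowest, median and highest values were -0.58, -0.34 and -0.12 in B conventional, -0.61, -0.34 and 0.18 in B alternative, -0.52, -0.11 and 0.41 in LW conventional, and -0.36, -0.14 and 0.39 in LW alternative pigs. The B alternative pigs other than replicate 16 lay at -0.31 or lower, and replicate 16 stood far above them. The breed difference was -0.24 (SE 0.070, adjusted p = 0.014), or 84.9% of the LW level, with -0.22 (SE 0.099, adjusted p = 0.17) in C and -0.25 (SE 0.099, adjusted p = 0.12) in A housing.

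On probe 1391 the values of CKB ranged from -0.75 to 0.47 in B pigs with a median of -0.42, and from -0.67 to 0.95 in LW pigs with a median of 0.12. The lowest, median and highest values were -0.69, -0.39 and 0.089 in B conventional, -0.75, -0.45 and 0.47 in B alternative, -0.67, 0.11 and 0.95 in LW conventional, and -0.37, 0.12 and 0.67 in LW alternative pigs. The same pigs were extreme as on probe 1331, since B alternative replicate 16 was the highest B pig, LW conventional replicate 10 the highest LW pig and LW conventional replicate 8 the lowest LW pig on both. The breed difference was -0.45 (SE 0.10, adjusted p = 0.0019), or 73.1% of the LW level. It was -0.44 (SE 0.15, adjusted p = 0.062) in C housing, where it was not called, and -0.47 (SE 0.15, adjusted p = 0.047) in A housing, where it was. This split between housing systems was not firm, since the difference was called in C housing under 13 of 25 alternatives and lost its call in A housing under 8. Without the 2 arrays that stood apart it turned round, with -0.43 (adjusted p = 0.0499) called in C and -0.44 (adjusted p = 0.057) not called in A housing. Of all tested probes, 8.29% were called between breeds within C and 7.67% within A housing, against 0 and 2 of the 4 probes described here. Without the 2 arrays that stood apart these shares were 13.6% and 13.0%, with array weights 14.1% and 17.7%, and with Cy3 alone 1.95% and 1.82%, while of the 4 probes 1 and 1, 2 and 3, and 0 and 0 were called. The calls in A housing were 361 higher and 577 lower in B, but 979 higher and 609 lower without the 2 arrays.

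**Figure D1:**
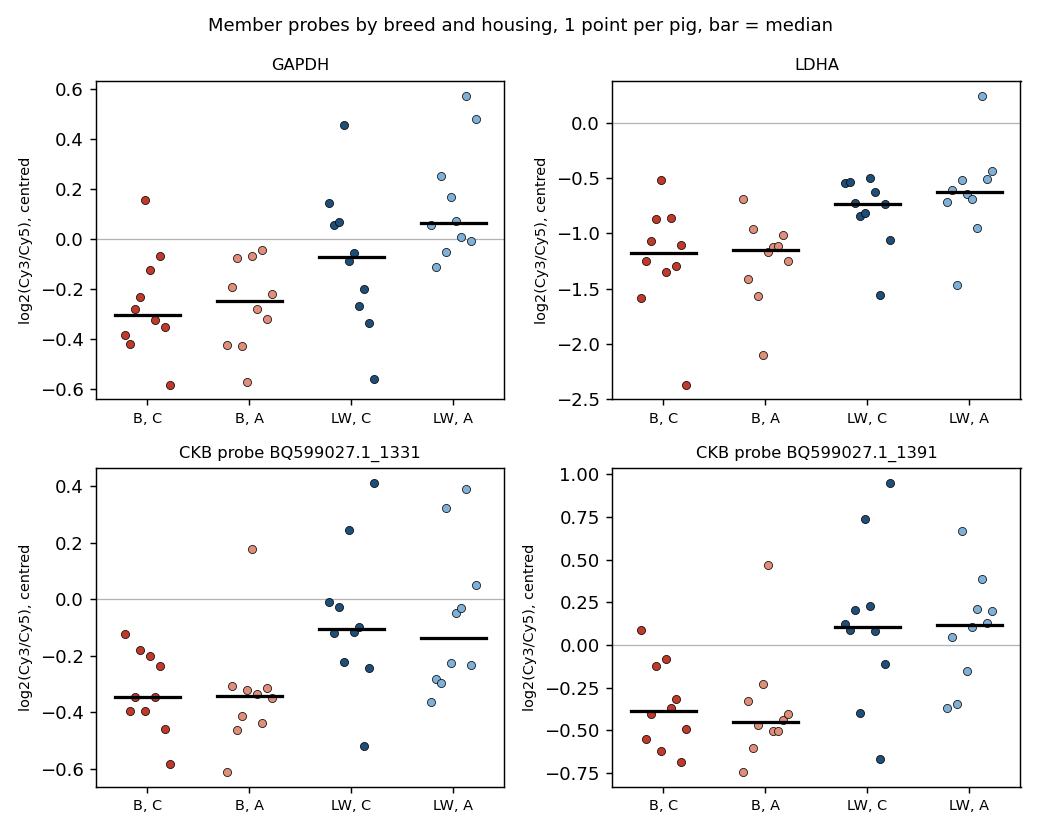
Log2 ratio of pig to pool, centred on each array, for the 4 probes of GAPDH, LDHA and CKB in the 4 groups (B or LW breed, C or A housing, 10 pigs each). Points are pigs and bars are group medians, and the GAPDH medians are -0.30, -0.25, -0.071 and 0.065 from left to right.

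By group medians, GAPDH and LDHA had the same order from low to high, B conventional, B alternative, LW conventional and LW alternative. By group means B alternative lay slightly below B conventional, at -0.2625 against -0.2620 for GAPDH and at -1.240 against -1.227 for LDHA. No neighbours in the order of medians passed the test. For GAPDH the neighbours of different breed, B alternative and LW conventional, differed by -0.12 (SE 0.093, adjusted p = 0.56), and for LDHA by -0.38 (SE 0.18, adjusted p = 0.27), where 4.88% of the tested probes were called. The ends of the order are the lowest and highest of the observed medians, and they differ in both breed and housing. An adjusted p over probes does not cover that choice, so nothing is concluded from calls between them. These ends, B conventional and LW alternative, differed by -0.41 for GAPDH (SE 0.092, adjusted p = 0.0036) and by -0.57 for LDHA (SE 0.18, adjusted p = 0.038), and both were called, where 11.0% of the tested probes were. With Cy3 alone these differences were 0.011 (adjusted p = 0.98) for GAPDH and -0.18 (adjusted p = 0.78) for LDHA, and with Cy5 alone, the channel of the pool, 0.42 (p = 0.024, adjusted p = 0.83) and 0.38 (p = 0.084, adjusted p = 0.83), none of which was called. The difference of B alternative and LW conventional pigs in GAPDH was -0.26 with Cy3 alone and -0.13 with Cy5 alone, neither of which was called. Both calls also ended with the Cy3 intensity after the Rquantile step, at -0.14 (adjusted p = 0.43) for GAPDH and -0.44 (adjusted p = 0.19) for LDHA. For CKB the 2 groups of a breed lay close together on either probe, so that the order held between breeds alone. The neighbours of different breed were B alternative and LW alternative on probe 1331 and B conventional and LW conventional on probe 1391, and neither pair passed the test.

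Housing system gave no call for any of the 4 probes. Over all tested probes limma called 0 for housing and 0 for the interaction, with 338 and 323 probes at an unadjusted p under 0.05, and the two-step analysis of the methods also called 0, with 323 and 540. GAPDH had the lowest unadjusted p among the 4 probes, with a difference of A minus C of 0.14 (SE 0.066, p = 0.038, adjusted p = 1.00). With Cy3 alone it was -0.14 (SE 0.14, adjusted p = 0.69), of the opposite sign, and with Cy5 alone -0.28 (SE 0.13, p = 0.038, adjusted p = 0.61). Within LW pigs A minus C was 0.25 (SE 0.094, p = 0.011, adjusted p = 1.00), and within B pigs it was 0.035 (SE 0.091, p = 0.70). LDHA differed by 0.095 (SE 0.13, adjusted p = 1.00) between housing systems, and CKB by 0.014 (SE 0.072) on probe 1331 and -0.012 (SE 0.11) on probe 1391.

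The channels behind the ratio were read apart, because the Cy5 channel held the same pool on every array. The median Cy3 intensity of GAPDH was 1108 in B and 1120 in LW pigs, and its median Cy5 intensity was 2415 on B arrays and 2105 on LW arrays. Centred in the same way, the GAPDH difference was -0.12 in Cy3 (SE 0.13, adjusted p = 0.73) and 0.14 in Cy5 (SE 0.12, adjusted p = 1.00), neither of which was called. The difference in the ratio is that in Cy3 minus that in Cy5, and for GAPDH these were of like size. LDHA differed by -0.33 in Cy3 (SE 0.18, adjusted p = 0.34) and by 0.14 in Cy5 (SE 0.15, adjusted p = 1.00), and was not called in Cy3 alone either. CKB stayed called in Cy3 alone, with -0.33 on probe 1331 (SE 0.10, adjusted p = 0.041) and -0.47 on probe 1391 (SE 0.13, adjusted p = 0.016), where its Cy5 differences were -0.092 and -0.018. In Cy3 alone 8.48% of the tested probes were called between breeds, and in Cy5 alone limma called 0, with 33 at an unadjusted p under 0.05.

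**Figure D2:**
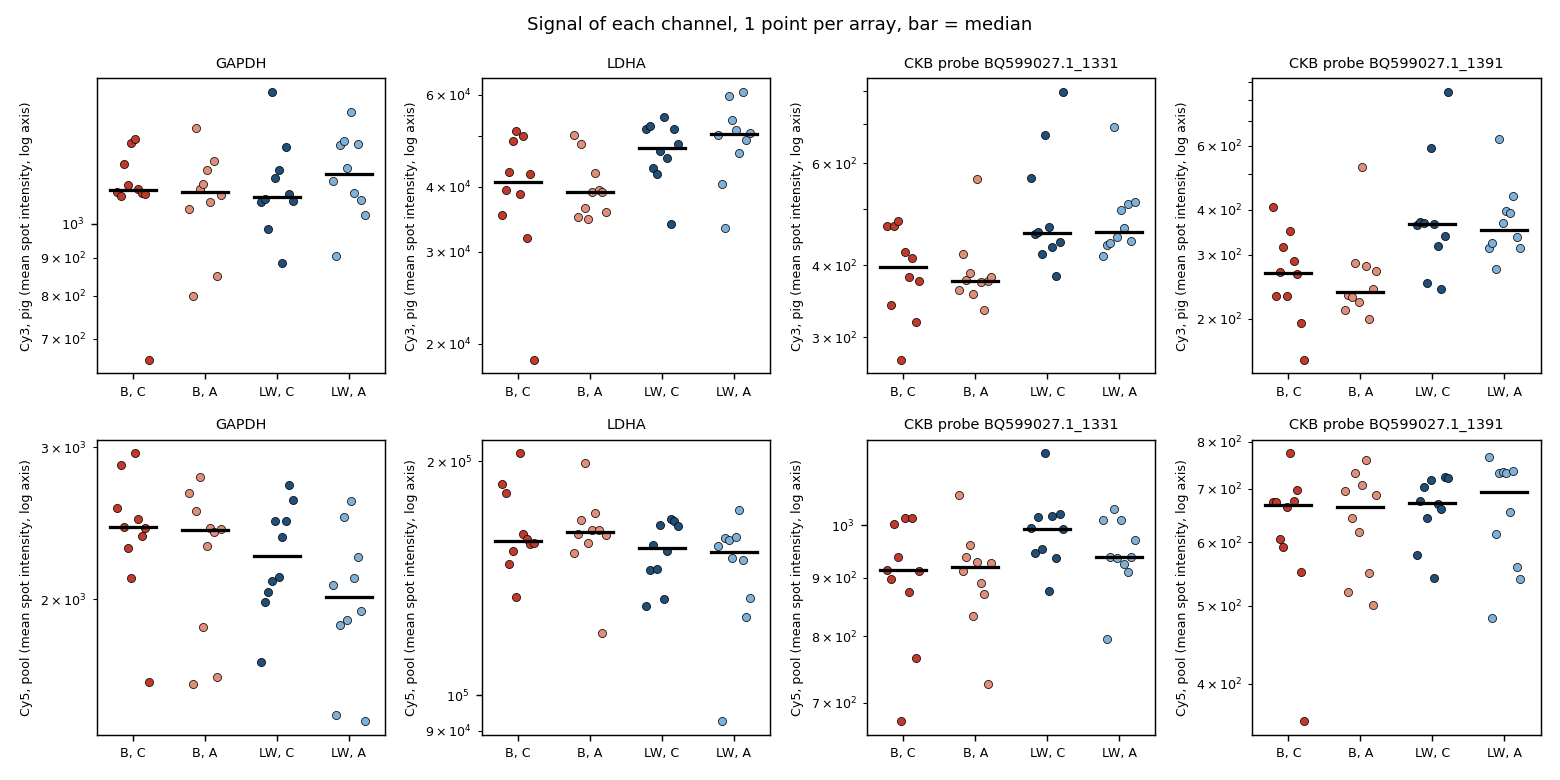
Mean spot intensity, on log axes, of each probe in Cy3 (pig, upper panels) and Cy5 (pool, lower panels) in the 4 groups of 10 arrays, with bars at the medians. The median Cy5 intensity of GAPDH is 2422 and 2403 on the B conventional and B alternative arrays and 2241 and 2009 on the LW conventional and LW alternative arrays.

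With the Cy3 intensity after the authors' Rquantile step in place of the ratio, the GAPDH difference was -0.12 (adjusted p = 0.26) and the LDHA difference -0.30 (adjusted p = 0.15), and both calls ended. Without the 2 arrays that stood apart all 4 probes stayed called. Within every one of the 7 slides each of the 4 probes was lower in B, from -0.41 to -0.12 for GAPDH, from -1.18 to -0.064 for LDHA, from -0.51 to -0.0083 for CKB on probe 1331 and from -0.89 to -0.075 on probe 1391. The slides held between 2 and 7 arrays, and no test was run within single slides. They split the same arrays on which the probes were chosen as lower in B, so the shared direction is no independent evidence.

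The CKB probes did not give the same breed difference. Probe 1391 also spread more between pigs, with an SD of 0.28 in B and 0.39 in LW pigs, against 0.17 and 0.25 on probe 1331. Whether the disagreement goes beyond this unlike spread was not tested. Probe 1331 minus probe 1391, taken within each array, had a median of 0.058 in B and -0.17 in LW pigs, and ranged from -0.29 to 0.23 in B and from -0.54 to 0.18 in LW pigs. The disagreement was 0.22 (SE 0.047, adjusted p = 0.0015 over 885 pairs of probes on a shared contig), where 12.7% of such pairs were called and 49 pairs disagreed by more. It was of like size in C (0.22, adjusted p = 0.058) and A housing (0.22, adjusted p = 0.049), but called in A housing alone. Of the 885 pairs, 39 were called within C and 50 within A housing. Over both housing systems the disagreement was not called with the Cy3 intensity after Rquantile (0.15, adjusted p = 0.26) or with Cy3 alone (0.14, adjusted p = 0.50).

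Between pigs, the pair of CKB probes moved together most closely. Their correlation was r = 0.93 and rho = 0.88 over 20 B pigs and r = 0.91 and rho = 0.87 over 20 LW pigs, each with a two-sided permutation p of 1e-05, the smallest that 100000 permutations can give, and an adjusted p of 6e-05 over 12 correlations. Without the 2 pigs farthest from the median of probe 1331 r was 0.85 and 0.92, and with the means of slide and group removed it was 0.93 and 0.95. Pigs high in CKB on one probe were thus high on the other, as 2 readings of 1 contig.

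GAPDH and LDHA correlated at r = 0.61 in B pigs (permutation p = 0.0042, adjusted p = 0.017) but at rho = 0.36 (p = 0.12, adjusted p = 0.34). In the ratio this relation rested on a few pigs, and it passed the test under 7 of 14 alternatives. It was r = 0.34 (adjusted p = 0.36) without the 2 B pigs farthest from the GAPDH median and 0.53 (adjusted p = 0.083) without the 2 arrays that stood apart. With slide and group means removed it was 0.49 (adjusted p = 0.12), but 0.95 (adjusted p = 0.00054) with Cy3 alone. The rise with Cy3 alone was not particular to this pair, since GAPDH and CKB in B pigs then passed too, at 0.73 on probe 1331 and 0.56 on probe 1391. Values of a single channel share the level and centring of their array, and the part of these in the 0.95 was not tested. In LW pigs GAPDH and LDHA had r = 0.41 (p = 0.076, adjusted p = 0.18) and rho = 0.28 (p = 0.23, adjusted p = 0.34), and r = 0.068 without the 2 farthest pigs. Whether the breeds differ in this correlation was not tested.

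LDHA and CKB did not pass the test in either breed. In B pigs r was 0.019 on probe 1331 (p = 0.93) and -0.23 on probe 1391 (p = 0.31), and in LW pigs it was 0.46 (p = 0.040, adjusted p = 0.12) and 0.39 (p = 0.093, adjusted p = 0.19). Without the 2 farthest LW pigs these were 0.021 and 0.11. GAPDH and CKB had r between -0.25 and 0.32 over both breeds and probes, and no adjusted p of these passed. All values of an array share its dye balance, centring and RNA. The array median before centring correlated with GAPDH at r = -0.51 in B (adjusted p = 0.085 over 8) and -0.44 in LW pigs (adjusted p = 0.11), and with LDHA at -0.45 (adjusted p = 0.11) and -0.58 (adjusted p = 0.085). With CKB it was -0.066 and 0.034 in B and -0.43 (adjusted p = 0.11) and -0.17 in LW pigs on probes 1331 and 1391. By rho the values were -0.45 and -0.26 for GAPDH and 0.0060 and -0.20 for LDHA in B and LW pigs, and without the 2 pigs of the most extreme array medians r was -0.38 and -0.13 for GAPDH and -0.19 and -0.38 for LDHA. Its part in the correlations was not tested.

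**Figure D3:**
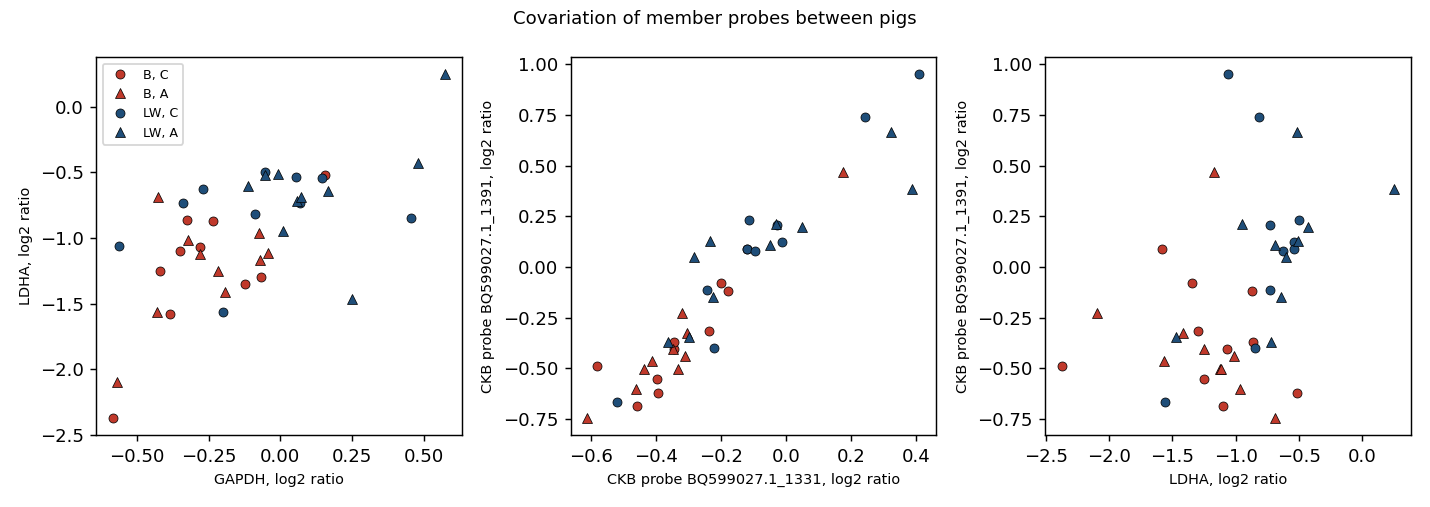
Log2 ratios of GAPDH against LDHA, of both CKB probes against each other, and of LDHA against CKB probe 1391, 1 point per pig, coloured by breed with circles for C and triangles for A housing. The CKB probes follow a line in each breed (r = 0.93 in B and 0.91 in LW pigs), and the LDHA values of 2 B pigs lie at -2.37 and -2.10.

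Likeness to other genes was ranked by the Pearson r of residuals, with group and slide removed, over 40 arrays. It covered 682 named probes of other contigs for GAPDH and LDHA and 681 for CKB, all of them chosen by the study as lower in B. GAPDH was like STAB1 (r = 0.72) and TPM1 (0.65) and least like SEPT4 (-0.53). LDHA was most like both probes of BPGM (0.90 and 0.89) and SSPN (0.85), and least like GGNBP2 (-0.61). CKB was most like PAOX (0.62 on either probe) and MYL9 (0.56 on either probe), then CASQ2 on probe 1331 (0.53) and IL16 on probe 1391 (0.53), and least like CHCHD1 (-0.56 on either probe). The median r over the named probes was 0.093 for GAPDH, 0.13 for LDHA, and 0.068 and 0.044 for CKB.

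Probe sequences show what each signal can and cannot be tied to, and a stretch of 3 of them is printed 5′ to 3′. For GAPDH the capitals are the complement of a TAA stop codon, which ends the third reading frame of the opposite strand after 17 codons. The third frame of the printed strand also ends after 17 codons. From general knowledge, and not compared with a reference sequence here, the frame of the opposite strand resembles the end of the GAPDH coding sequence, in which case the probe as printed would run opposite to the mRNA. For LDHA the capitals are a run of 15 bases shared with BP147775.1_1213, and for CKB probe 1391 the polyadenylation motif AATAAA.
GAPDH: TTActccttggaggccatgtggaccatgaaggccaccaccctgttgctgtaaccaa
LDHA: gcatgtcTTGTGATAACTATTCtaaagaat
CKB probe 1391: aAATAAAcaggttttggcctgccccaaaaa
No transcript sequence was used here, so whether the GAPDH probe has the strand of the GAPDH mRNA or the opposite one was not established, and its values are those of a probe named GAPDH by the study. The probe that shares bases with LDHA differed between breeds by -0.15 (adjusted p = 0.0051), and no other run of 15 bases was shared between a probe described here and another contig. AATAAA, searched on the printed strand, is held by 8.70% of the array's probes and its complement TTTATT by 4.30%, and CKB probe 1391 ends in a run of 5 A. The CKB probes hold 53.3% (1331) and 41.7% (1391) of G and C.

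Other energy genes could be named only where the study had listed a probe as lower in B, so their direction is fixed by that choice. The study's table of probes higher in B was not used for names, because its probes and symbols were out of step. Probes with 1 symbol on different contigs had a median residual r of 0.11 over 98 pairs in that table, against 0.66 over 57 pairs in the table of probes lower in B. Genes listed there, such as LDHB, LIPE and FOS, are therefore missing from the lists below. Of 9 energy lists, 24 probes of 17 genes were named, all 24 were lower in B and 21 were called, with a median difference of -0.31. Over all 683 named probes 509 were called lower, with a median of -0.26. Glycogen metabolism had 9 named probes, of which 7 were called, the lowest being PGM1, phosphoglucomutase, at -2.13 (SE 0.29, adjusted p = 1.83e-06), while PHKA2 was not called (-0.11, adjusted p = 0.076). In upper glycolysis both probes of PFKP were called (-0.39 and -0.28). In lower glycolysis all 3 were called, GAPDH and both BPGM probes (-0.42 and -0.41). The list of lactate formation and transport had LDHA and SLC16A5 (-0.33), both called. Whether SLC16A5 carries lactate was not examined, so its value is not read as one of lactate transport. The list of creatine kinases, creatine supply, adenylate kinases and the purine nucleotide cycle had 4 probes, all called, with AK1 at -0.30 and ADSL, of the purine nucleotide cycle, at -0.52 beside CKB. PDK1 stood alone for pyruvate entry (-0.15, called), ATP5E was called (-0.46) and NDUFAB1 was not (-0.10, adjusted p = 0.18) in the respiratory chain, and 0 probes could be named for the tricarboxylic acid cycle and for NADH shuttles. No probe could be named for LDHB or CKM.

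Markers of fibres and of other cells could be named from the same table alone, so members of these lists that are higher in B are missing. For comparison with the counts below, 509 of all 683 named probes and 9.61% of all tested probes were called lower in B. The skeletal muscle list had 2 probes and 0 calls, with a mean log2 ratio of -0.51 in B and -0.23 in LW pigs and ACTA1 as its strongest signal (-0.29, adjusted p = 0.19). Fast fibre markers had 2 of 3 called (means -0.50 and -0.091, MYH1 at -0.66) and slow fibre markers 2 of 4 (means -0.69 and -0.37, CA3 not called at -0.29). Fibroblast and matrix markers had 3 of 6 called (means -0.29 and 0.25), with SPARC at -1.47 and -0.68 on different probes. Smooth muscle and pericyte markers had 1 of 2 called (means -0.62 and -0.31), red blood cell markers 0 of 2 (means -0.81 and -0.33) and early stress genes 0 of 1 (means -0.42 and -0.19). No probe could be named for adipocyte, endothelial, nerve and Schwann cell, or immune markers. The part of these cells in the values of GAPDH, LDHA and CKB was not tested.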

How the data were processed

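The authors deposited the spot intensity of each array, per the file headers on a linear scale before normalization, and log2 ratios of pig to pool with the array median subtracted and Rquantile between arrays. From the intensities, normexp with an offset of 50 (limma 3.58.1, R 4.3.3) corrected the background, log2(Cy3/Cy5) was taken and the median over gene probes subtracted. Outlier spots (2396) were left out. Tests covered probes whose Cy3 signal was well above background on 10 or more arrays of a breed. The limma model held breed, housing, their interaction and slide, with Benjamini-Hochberg adjustment over tested probes, and pairs of probes on a contig were fitted alike. The methods were tested on simulated data. Python 3.11.15, NumPy 2.4.6 and SciPy 1.17.1 gave correlations and permutation tests.

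Members and lists were chosen with earlier results of these data known. The centring was also settled after its counts were seen: 6 forms of centring and fitting were tried, and the one kept gave the count of calls of an earlier analysis of these data. The other 5 stand among 8 alternatives added after seeing the data, beside 17 others. The Rquantile alternative was first run without centring, out of the order of the methods, and was put right after its values were seen to differ from those of the earlier analysis. Pairs of probes were widened from contigs with 2 probes to all shared contigs. Symbols came from the study's table of probes lower in B, for 683 probes, and whether probes and symbols keep step in either table was tested after the results were seen. Named genes are the members, by list the 3 lowest and 3 highest called probes and the strongest uncalled one, and the 3 most like and 1 least like each member, and the text names some of these. A withheld item is not reported here. Litter was not modelled.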

Additional observations from a re-analysis of the deposited data

Results flagged for a closer look

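In groups of 10 pigs, 3 values stood far from the rest of their group, where chance gives about 1 in 20 groups and 20 were looked at. For LDHA, LW conventional replicate 8 was the lowest of its group at -1.56, with a gap to the next pig of 0.470 of the range of the group. For CKB, B alternative replicate 16 was the highest of its group on both probes, at 0.18 on probe 1331 (gap of 0.611 of the range) and 0.47 on probe 1391 (0.575). These CKB values are 2 readings of 1 pig and not independent. Without B alternative replicate 16 the breed difference of CKB was -0.27 on probe 1331 and -0.51 on probe 1391.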

How the results depend on the processing

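The model was refitted under 25 alternatives, of which 8 were added after seeing the data. Signal over local background in Cy3 was lowest for CKB probe 1391, at 3.67 or more, and highest for LDHA, at 459.8 or more. All 4 probes were lower in B under each alternative, from -0.29 to -0.047 for GAPDH, -0.52 to -0.23 for LDHA, -0.33 to -0.21 for CKB probe 1331 and -0.61 to -0.40 for probe 1391. GAPDH and LDHA were called under 22 of 25, probe 1331 under 24 and probe 1391 under all 25. The call of GAPDH ended at -0.12 with Cy3 after Rquantile, -0.12 with Cy3 alone, -0.047 with uncentred Cy3 after Rquantile, with adjusted p from 0.00098 to 0.73 over its alternatives. For LDHA it ended at -0.30 with Cy3 after Rquantile, -0.33 with Cy3 alone, -0.23 with uncentred Cy3 after Rquantile, with adjusted p from 0.00058 to 0.34. The other centrings and the contrasts.fit forms ended no breed call of the 4 probes, and their counts of calls were 2583, 2575, 2661, 2597 and 2586 against the 2593 of the centring kept. The count over all alternatives ran from 1036 with Cy3 alone to 3783 with Agilent processed signals, and that of Cy3 alone was the one more than 1.5 times away. Of the called probes 1418 were higher and 1175 lower in B, against 1966 and 371 with uncentred Cy3 after Rquantile, which also moved the median of all probes in A housing to 0.12, and against 2271 and 1484 with array weights. Within single slides LDHA ran from -1.18 within slide 4 to -0.064 within slide 6. CKB probe 1331 moved to -0.0083 within slide 3 and -0.51 within slide 7, and probe 1391 to -0.075 within slide 3 and -0.89 within slide 7. Leaving out 1 array at a time ended no breed call, and gave -0.53 to -0.42 for LDHA, -0.27 to -0.20 for CKB probe 1331 and -0.51 to -0.40 for probe 1391. The causes of these changes and of those given next were not tested.

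With the replicate number as a block, 2206 probes were called between breeds, and CKB probe 1331 had -0.23 with the replicate block (adjusted p = 0.051). The numbers do not pair the pigs, since same-numbered pigs of the breeds had correlations of -0.36 to 0.34 and the own number was the best match for 2 of 20. The block also gave -0.45 for probe 1391 in A housing, which was then not called, and an interaction of 0.015 for that probe.

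Calls within a housing system changed more often. In C housing calls were gained for LDHA at -0.41 with array weights, for CKB probe 1331 at -0.32 with Agilent processed signals, -0.29 with loess, -0.33 with the series matrix, and for probe 1391 at -0.43 with no background correction, -0.50 with offset 16, -0.57 with Agilent processed signals, -0.50 with loess, -0.59 with the series matrix, -0.48 with no slide term, -0.47 with slide as a random block, -0.46 with scan day, -0.48 with the two-step analysis, -0.44 with the most variable probes, -0.42 with array weights, -0.43 with the 2 arrays left out, -0.46 with centring on tested probes. In A housing calls were gained for LDHA at -0.56 with offset 16, -0.61 with no slide term, -0.59 with slide as a random block, -0.60 with scan day, -0.61 with the two-step analysis, -0.54 with the most variable probes, -0.49 with array weights, and for CKB probe 1331 at -0.34 with Agilent processed signals, -0.30 with the series matrix. Lost in A housing were the calls of GAPDH at -0.20 with Cy3 after Rquantile, -0.23 with Cy3 alone, -0.086 with uncentred Cy3 after Rquantile, and of CKB probe 1391 at -0.44 with Cy3 after Rquantile, -0.47 with no dim filter, -0.46 with no slide term, -0.46 with the two-step analysis, -0.45 with the replicate block, -0.44 with the 2 arrays left out, -0.45 with Cy3 alone, -0.32 with uncentred Cy3 after Rquantile. B conventional and LW alternative pigs were compared as the ends of the observed medians, so nothing is concluded from their calls. Those of GAPDH and LDHA held under 20 of 23 alternatives and ended for GAPDH at -0.14 with Cy3 after Rquantile, 0.011 with Cy3 alone, -0.059 with uncentred Cy3 after Rquantile, and for LDHA at -0.44, -0.18 and -0.36 in that order.

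Housing was not called for any of the 4 probes under the 24 alternatives that gave a value, the replicate block giving none, nor was the interaction under 25, and their signs turned as follows. For A minus C over both breeds GAPDH had -0.14 with Cy3 alone, LDHA -0.15 with Cy3 alone and CKB probe 1331 -0.0070 with no background correction, -0.0065 with no slide term, -0.0028 with slide as a random block, -0.014 with scan day, -0.0065 with the two-step analysis, -0.0054 with array weights, -0.017 with the 2 arrays left out, -0.10 with Cy3 alone, -0.0073 with uncentred Cy3 after Rquantile. Within B pigs GAPDH had -0.061 with Cy3 after Rquantile, -0.00057 with no slide term, -0.00057 with the two-step analysis, -0.24 with Cy3 alone, -0.027 with uncentred Cy3 after Rquantile, LDHA -0.013 with no slide term, -0.013 with the two-step analysis, -0.24 with Cy3 alone, CKB probe 1331 -0.018 with no background correction, -0.012 with offset 16, -0.0070 with Cy3 after Rquantile, -0.011 with no slide term, -0.0096 with slide as a random block, -0.024 with scan day, -0.011 with the two-step analysis, -0.020 with array weights, -0.016 with the 2 arrays left out, -0.13 with Cy3 alone and probe 1391 0.021 with Cy3 after Rquantile, 0.055 with uncentred Cy3 after Rquantile. Within LW pigs GAPDH had -0.028 with Cy3 alone, LDHA -0.060 with Cy3 alone, CKB probe 1331 -0.0061 with loess, -0.0021 with no slide term, -0.0041 with scan day, -0.0021 with the two-step analysis, -0.019 with the 2 arrays left out, -0.080 with Cy3 alone, -0.041 with uncentred Cy3 after Rquantile, and probe 1391 -0.021 with no background correction, -0.0045 with offset 16, -0.031 with loess, -0.029 with Cy3 after Rquantile, -0.025 with the series matrix, -0.036 with no slide term, -0.026 with slide as a random block, -0.039 with scan day, -0.036 with the two-step analysis, -0.013 with array weights, -0.038 with the 2 arrays left out, -0.11 with Cy3 alone, -0.090 with uncentred Cy3 after Rquantile, -0.012 with centring on tested probes. The interaction of LDHA was 0.16 with Cy3 after Rquantile, 0.0077 with the 2 arrays left out, 0.26 with uncentred Cy3 after Rquantile, that of CKB probe 1331 0.041 with loess, 0.026 with the series matrix, 0.0031 with the 2 arrays left out, 0.068 with uncentred Cy3 after Rquantile and that of probe 1391 0.026 with loess, 0.050 with Cy3 after Rquantile, 0.021 with the series matrix, 0.017 with no slide term, 0.0032 with slide as a random block, 0.017 with the two-step analysis, 0.015 with the replicate block, 0.041 with Cy3 alone, 0.14 with uncentred Cy3 after Rquantile.

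The disagreement of the CKB probes lost its call at 0.15 with Cy3 after Rquantile, 0.14 with Cy3 alone, 0.15 with uncentred Cy3 after Rquantile. The correlation of the CKB probes passed in both breeds under each of 14 alternatives. That of GAPDH and LDHA in B pigs passed under 7 of 14, with 0.95 at the highest with Cy3 alone, and no longer passed at 0.45 with no background correction, 0.44 with Agilent processed signals, 0.48 with the series matrix, 0.50 with uncentred Cy3 after Rquantile, 0.49 with slide and group removed, 0.34 with the 2 farthest pigs left out, 0.53 with the 2 arrays left out. Passed with Cy3 alone were GAPDH and CKB in B pigs on probe 1331 (0.73) and probe 1391 (0.56), and in LW pigs GAPDH and LDHA (0.57) and LDHA and CKB on probe 1331 (0.64) and probe 1391 (0.52). Signs turned in B pigs for LDHA and CKB on probe 1331 (-0.16 with Cy3 after Rquantile, -0.070 with uncentred Cy3 after Rquantile, -0.34 with the 2 farthest pigs left out) and probe 1391 (0.27 with Cy3 after Rquantile, 0.47 with Cy3 alone, 0.28 with uncentred Cy3 after Rquantile). They turned in LW pigs for GAPDH and CKB on probe 1331 (-0.19 with no background correction, -0.043 with offset 16, -0.078 with Agilent processed signals, -0.085 with loess, -0.067 with the series matrix, -0.067 with centring on tested probes, -0.22 with the 2 arrays left out) and probe 1391 (0.0043 with Cy3 after Rquantile, 0.18 with Cy3 alone), and for LDHA and CKB on probe 1331 (-0.024 with uncentred Cy3 after Rquantile).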
